A study of Mus musculus with 13 samples.

Results

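Gpr151 knockout was compared with wild type in the 8 later of the 13 libraries of a study of medial habenula neurons. These were the 4 wild-type immunopurified (IP) libraries numbered 1091 to 1094 and the 4 knockout IP libraries numbered 1099 to 1102, chosen by library number and genotype label. All 8 came from mice with the Chat-TRAP DW167 transgene, so wild type here means wild type for Gpr151 only. The knockout group was Gpr151-KO::Chat-TRAP DW167. Each library was made from the pooled medial habenula of 4 adult mice over 8 weeks old, so that a replicate is a separate pool of animals. The labels give no treatment, while the names of the deposited tables say saline and number the libraries of each genotype from 1 to 4.

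In translating ribosome affinity purification (TRAP), a chosen cell type, here one set by a Chat driver, makes a ribosomal protein that carries GFP, and polysomes are pulled out of tissue homogenate with antibodies to GFP. The precipitate is enriched for the mRNA that those cells were translating, but it retains some RNA of neighbouring cells, and the amount of this carry-over differs from one precipitation to the next. The cholinergic neurons of the ventral medial habenula project to the interpeduncular nucleus, release acetylcholine and glutamate, and are rich in nicotinic receptors that contain the subunits encoded by Chrna3, Chrnb4 and Chrna5. Gpr151 is an orphan G protein-coupled receptor, related to the galanin receptors, that is concentrated in habenular neurons and their axons. Glia do not make the tagged ribosome in such mice, so their transcripts serve as a measure of carry-over. Whether the genotype itself alters glia or the purification was not tested.

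Gene counts ran from 44455657 to 58502055 per wild-type library and from 46839397 to 64388596 per knockout library. A count of 0 allows up to 3 counts, or 0.0466 to 0.0675 CPM (counts scaled to library size) per library, counting error only. TMM factors are used elsewhere, but not in this limit or in shares of the input level. Between 14289 and 15259 genes had at least 10 counts. Library 1091 had the lowest share of reads that were not unique (25.2%, others 30.8% to 39.2%) and of the ribosomal RNA precursor Rn45s (2.25%, others 6.18% to 8.77%). The 8 tables share 1 list of 24454 gene symbols, and 14741 genes had enough counts to be tested. No sequencing lane number occurred in both genotypes (lanes 6, 1 and 3 for wild type, lanes 7, 2 and 5 for knockout), and flow cells are not named in the labels, so lane and genotype cannot be told apart. Libraries 1091, 1099 and 1102 stood apart by their glial transcripts (values follow those of Gpr151). Without these 3, which were known from earlier results to be rich in them, edgeR called no gene (269 had an unadjusted p under 0.05), and the log2 fold change of Gpr151 was -1.37 and that of Oxt 3.698.

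Each knockout library had less Gpr151, the targeted gene, than any wild-type library. It (ENSMUSG00000042816.4, minus strand of chromosome 18 at 42577881 to 42579652, GRCm38) stood at 366, 558, 347 and 370.0 CPM in the wild-type libraries and 119, 195, 134 and 114 CPM in the knockout libraries, here and throughout in the order 1091 to 1094 and 1099 to 1102. The groups did not overlap, and wild-type library 1092 lay above the other 3 wild-type libraries. The raw counts were 21676, 29250, 18410 and 16751 in wild type and 5648, 12654, 6367 and 6302 in knockout, so reads of the gene remained. The knockout mean was 34.3% of the wild-type mean. The log2 fold change was -1.54 ± 0.23 (SE, n = 4 and 4; 95% interval -2.06 to -1.03), and an exact permutation test of log2 CPM over the 70 splits gave p = 0.0286, two-sided, the smallest p these 8 libraries allow. Over all genes the call depended on how the spread was modelled. The edgeR quasi-likelihood test of genotype alone gave an adjusted p = 0.428, DESeq2 gave 1.09e-05, and edgeR with the number in the file names as a replicate block gave 9.26e-05 (log2 fold change -1.55 ± 0.09, SE). With the glial level of each library as a covariate the log2 fold change was -1.31 (edgeR adjusted p = 0.210).

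**Figure D1:**
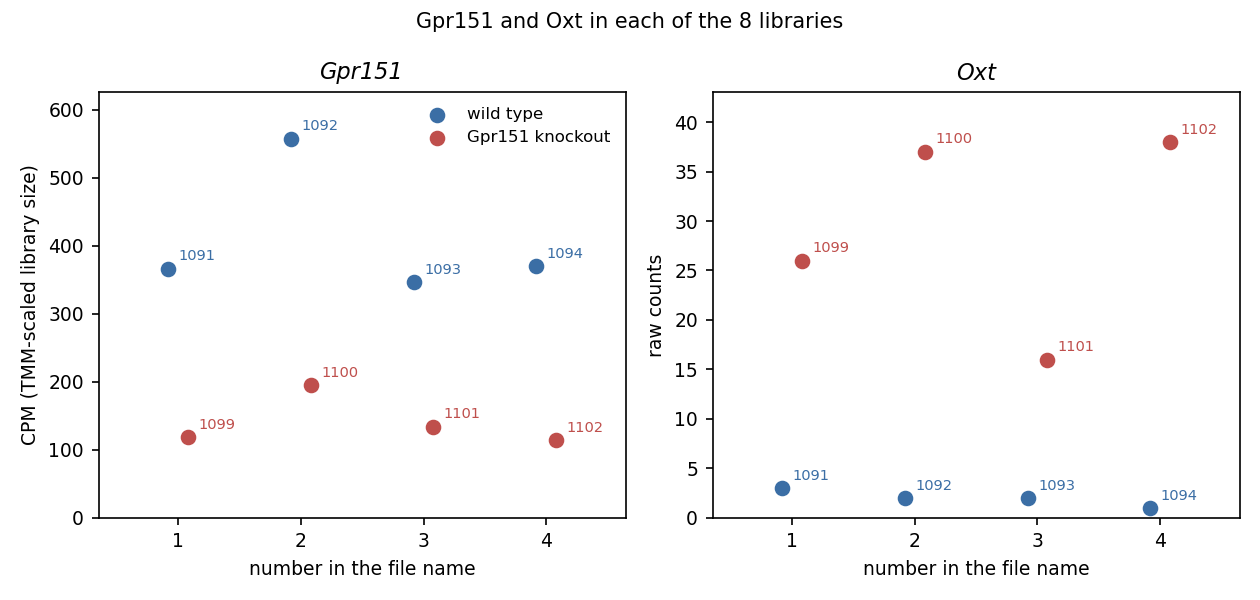
Gpr151 in CPM (left) and Oxt in raw counts (right) in each of the 8 libraries, against the number in the file name. Each point is 1 library; blue is wild type and red is knockout. The knockout libraries lie between 114 and 195 CPM for Gpr151, below all wild-type libraries, and between 16 and 38 counts for Oxt, above all wild-type libraries.

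The 8 libraries differed widely in glial transcripts, and within each number of the file names the knockout library held more. A glial score was defined as the mean log2 CPM of the 54 tested of 56 markers of astrocytes, oligodendrocytes, their precursors and microglia. It was 3.48, 1.45, 2.01 and 2.31 in libraries 1091 to 1094 and 4.30, 2.10, 2.70 and 3.67 in libraries 1099 to 1102. The wild-type mean was 2.31 ± 0.854 and the knockout mean 3.19 ± 0.981 (SD, n = 4 each). The difference of 0.88 is no larger than the SD between libraries of the knockout group, and the groups overlap, with library 1091 above knockout libraries 1100 and 1101. Between libraries of the same number the difference was 0.82, 0.65, 0.70 and 1.36, higher in knockout in 4 of 4.

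Set against the single wild-type input library (unpurified homogenate), the median glial marker was at 36.4%, 6.34%, 12.6% and 15.7% of its input level in libraries 1091 to 1094, and at 57.9%, 11.8%, 17.9% and 37.6% in libraries 1099 to 1102. The input library is numbered among the earlier libraries and is not one of the later ones compared here. The shares cover the 48 markers with at least 5 CPM in the input, without TMM factors. Libraries 1091, 1099 and 1102 thus kept the most glial RNA and libraries 1092 and 1100 the least. Medial habenula identity genes ran the other way, at 877% to 1026% of input in wild type and 585%, 937%, 960% and 747% in knockout. Cholinergic genes were at 730%, 1264%, 920% and 960% in wild type and 564%, 771%, 1054% and 715% in knockout. The mean log2 CPM of the cholinergic genes, which gives each gene equal weight, was 5.42 in both genotypes. Their summed CPM, set mainly by the abundant genes, averaged 800 (SD 269) for the knockout libraries against 939 (SD 245) for the wild-type ones. The knockout sum was the lower one within each number of the file names, although the ranges of the genotypes overlapped (567 to 1164 against 666 to 1262). The glial marker Aqp4, the water channel of astrocytes, stood at 39.2, 4.86, 8.75 and 9.39 CPM in wild type and 69.3, 8.91, 11.5 and 25.2 CPM in knockout. Mobp, a myelin gene of oligodendrocytes, stood at 38.2, 16.4, 24.5 and 25.7 CPM in wild type and 82.3, 25.8, 32.2 and 62.7 CPM in knockout, and the microglial receptor P2ry12 at 2.82, 0.515, 0.452 and 0.221 CPM in wild type and 3.99, 1.33, 0.969 and 1.20 CPM in knockout. In all 3 genes library 1091 was the highest of wild type and library 1099 the highest of knockout.

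**Figure D2:**
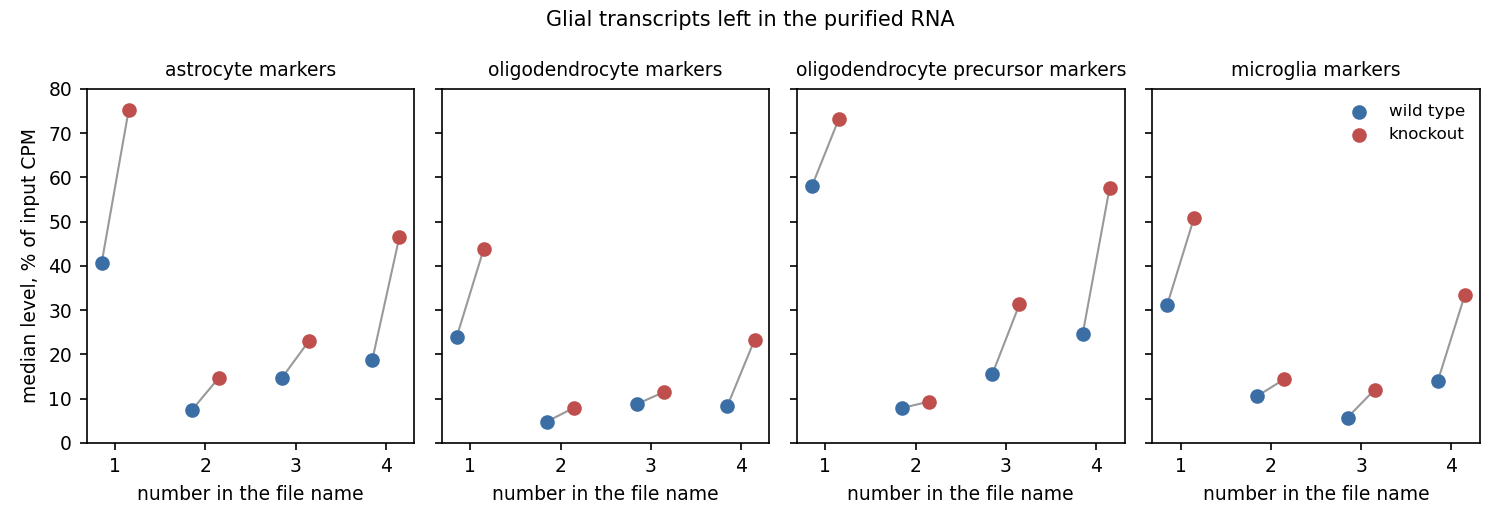
Median level of the markers of 4 glial cell types, as a percentage of their CPM in the input library, in each of the 8 IP libraries. Lines join the wild-type (blue) and knockout (red) library with the same number in the file name. Knockout is higher in each of the 4 numbers for all 4 cell types, and astrocyte markers range from 7.40% in library 1092 to 75.2% in library 1099.

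With genotype alone in the model, edgeR called no transcript and DESeq2 called 4. The edgeR quasi-likelihood test called 0 of 14741 genes (0%) at an adjusted p of 0.05 and placed 333 (2.26%) at an unadjusted p under 0.05, 213 higher (1.44%) and 120 lower (0.814%) in knockout. DESeq2 called 4 of 19473 genes (0.0205%): Gpr151, Oxt, Pcdhb6 and Pcdhgb8. Limma's voom with sample quality weights called Gpr151 alone, and had 2439 genes at an unadjusted p under 0.05. For 78 genes (0.529%) every knockout library exceeded every wild-type library, and for 156 (1.06%) every one lay below.

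Oxt, the precursor of the hormone oxytocin of hypothalamic neurons (chromosome 2 at 130576173 to 130577054, plus strand, GRCm38), had the smallest p. It had 3, 2, 2 and 1 counts in libraries 1091 to 1094 and 26, 37, 16 and 38 in libraries 1099 to 1102. The groups did not overlap, although the knockout level of 0.547, 0.571, 0.337 and 0.690 CPM was far below that of Gpr151. The totals of 8 and 117 counts gave a ratio of 14.3 after scaling (95% exact interval 7.02 to 33.9, counting error only). The fitted log2 fold change was 3.75 ± 0.53 (SE), with an adjusted p of 0.428 in edgeR, 0.00124 in DESeq2 and 0.0102 in edgeR with the replicate block. Among precursors of other hypothalamic peptides, Avp, Hcrt and Pmch, too low for the test, were also higher in knockout totals. They were picked from the 26 listed precursors outside the naming rule, and other precursors too low for the test are not given here. Of the 16 tested precursors, 9 had higher means in knockout. Avp, the vasopressin precursor, had 9 counts in wild type and 77 in knockout (10 to 36 per knockout library). Hcrt, the orexin precursor, had 4 and 53 (0 to 39 per knockout library), and Pmch, the precursor of melanin-concentrating hormone, had 3 and 37 (2 to 24). The ranges of Hcrt in the 2 genotypes overlapped, whereas those of Avp (0 to 6 in wild type) and Pmch (0 to 1 in wild type) did not. What part RNA of neighbouring hypothalamic tissue has in these counts was not tested.

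The other 9 of the 10 genes with the smallest p among those higher in knockout had an edgeR adjusted p of 0.990 each, and none of them overlapped between the groups. Pcdhb6, a clustered protocadherin of the cell surface, stood at 1.81, 1.62, 1.09 and 1.72 CPM in the wild-type libraries and 5.65, 4.83, 3.62 and 3.83 CPM in the knockout libraries, or 1.52 ± 0.27 on the log2 scale (SE; edgeR with the replicate block, adjusted p = 0.00574). Its relative Pcdhgb8 stood at 1.22, 2.33, 1.36 and 1.17 CPM in wild type and 6.62, 3.74, 4.07 and 4.12 CPM in knockout (1.61 ± 0.32; blocked adjusted p = 0.0118, edgeR). Members of this family are similar in sequence, and reads of one may have been counted for another. Ramp3, which partners receptors of the calcitonin family, stood at 5.97, 2.97, 4.29 and 5.61 CPM in wild type and 14.9, 6.47, 8.09 and 16.7 CPM in knockout (1.29 ± 0.35; blocked adjusted p = 0.00398, edgeR). In Ramp3 the libraries rich in glial transcripts were the high ones within each genotype. Smad7, an inhibitor of TGF-beta signalling, stood at 6.90, 6.58, 5.27 and 5.19 CPM in wild type and 13.6, 10.1, 8.89 and 11.6 CPM in knockout (0.88 ± 0.20; blocked adjusted p = 0.00922, edgeR).

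Pnoc, the precursor of nociceptin, stood at 0.287, 0.0953, 0.301 and 0.177 CPM in wild type and 1.85, 0.463, 0.780 and 0.944 CPM in knockout, or 2.21 ± 0.57 on the log2 scale (SE; edgeR with the replicate block, adjusted p = 0.0231). Xaf1, an antagonist of an inhibitor of apoptosis, stood at 0.811, 0.572, 0.584 and 0.707 CPM in wild type and 5.47, 1.16, 2.07 and 2.01 CPM in knockout (1.99 ± 0.48), and its highest library, 1099, was also the one richest in glial transcripts. The remaining 3 genes, the imprinted Mkrn3 (2.38 ± 0.59), Lemd1 (1.92 ± 0.52) and Gm8615 (1.75 ± 0.41), lay at or below 1.16 CPM in every library and were not called by edgeR with the block. DESeq2 with the block called Gm8615 (adjusted p = 0.0147) and Lemd1 (adjusted p = 0.024).

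Among genes lower in knockout, Kcng4 and Trim36 were the most abundant of the 10 after Gpr151. Kcng4, a modulatory subunit of voltage-gated potassium channels, stood at 248, 196, 269.9 and 259 CPM in the wild-type libraries and 107, 157, 165 and 110.1 CPM in the knockout libraries, or -0.85 ± 0.19 on the log2 scale (SE; edgeR adjusted p = 0.990, with the replicate block 0.0102). Trim36, a ubiquitin ligase, stood at 105, 119, 117 and 111 CPM in wild type and 62.3, 87.8, 68.6 and 56.96 CPM in knockout (-0.71 ± 0.16; blocked adjusted p = 0.00648, edgeR). The groups did not overlap in either gene. Within knockout both genes were lowest in libraries 1099 and 1102, which held the most glial transcripts. Within wild type Trim36 was lowest in library 1091, which held the most, but Kcng4 in library 1092, which held the least. The slope on the glial score was called for neither gene (edgeR adjusted p = 0.348 for Kcng4 and 0.0767 for Trim36). Their log2 fold changes were -0.76 and -0.57 with the glial score as a covariate.

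Tagln2, an actin-binding protein, stood at 15.7, 13.9, 16.1 and 15.4 CPM in wild type and 10.5, 9.93, 11.5 and 8.97 CPM in knockout (-0.58 ± 0.15; blocked adjusted p = 0.0206, edgeR). Zfp526 stood at 14.6, 16.01, 19.95 and 19.5 CPM in wild type and 8.39, 11.7, 12.3 and 11.5 CPM in knockout (-0.67 ± 0.19). C130046K22Rik stood at 12.3, 7.19, 12.4 and 11.8 CPM in wild type and 6.26, 5.80, 4.93 and 4.39 CPM in knockout (-1.03 ± 0.23), with library 1092 below the other 3 wild-type libraries. The homeobox factor Onecut1 (-1.04 ± 0.26), Samd11 (-1.47 ± 0.36) and Ercc2, a helicase of transcription factor TFIIH and of nucleotide excision repair (-0.80 ± 0.22), lay between 1.57 and 9.58 CPM. Hsf2bp, at most 0.508 CPM, had -1.80 ± 0.50 and was not called by edgeR or DESeq2 with the block. Of the 20 genes named in this way, 10 a direction, 16 passed with the replicate block, against 4.93% of all genes, and all 20 kept their sign with the glial score as a covariate. They were chosen for a small p in the same 8 libraries, so neither count is independent of the choice.

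The 4 earlier IP libraries, 1 pair of 682 (wild type) and 683 (knockout) and 1 pair of 852 (wild type) and 855 (knockout), played no part in choosing these genes. Each pair is a single difference with no replicate. Of the 19 named genes that the earlier tables list, 11 (57.9%) differed in the same direction in both pairs, compared with 24% of all genes. Gpr151 differed by -2.09 between libraries 683 and 682 and -1.54 between 855 and 852 on the log2 scale, Oxt by 3.33 and 4.28, and Pnoc by 2.38 and 1.11. Pcdhb6 differed by 0.52 and 1.27, Gm8615 by 1.35 and 1.38 and Lemd1 by 1.09 and 1.61. Hsf2bp (-0.61 and -0.69), Trim36 (-0.40 and -0.59), Tagln2 (-0.51 and -0.46) and Ercc2 (-0.92 and -0.83) were lower in both. Ramp3 (-0.70 and -0.15) and Zfp526 (0.54 and 0.25) differed in the opposite direction in both pairs. The direction was opposite in 1 pair for Kcng4 (0.34 and -0.12), C130046K22Rik (0.50 and -0.41) and Samd11 (0.35 and -0.29). The same held for Onecut1 (0.61 and -0.17), Smad7 (-0.07 and 0.58) and Xaf1 (0.65 and -0.08).

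**Figure D3:**
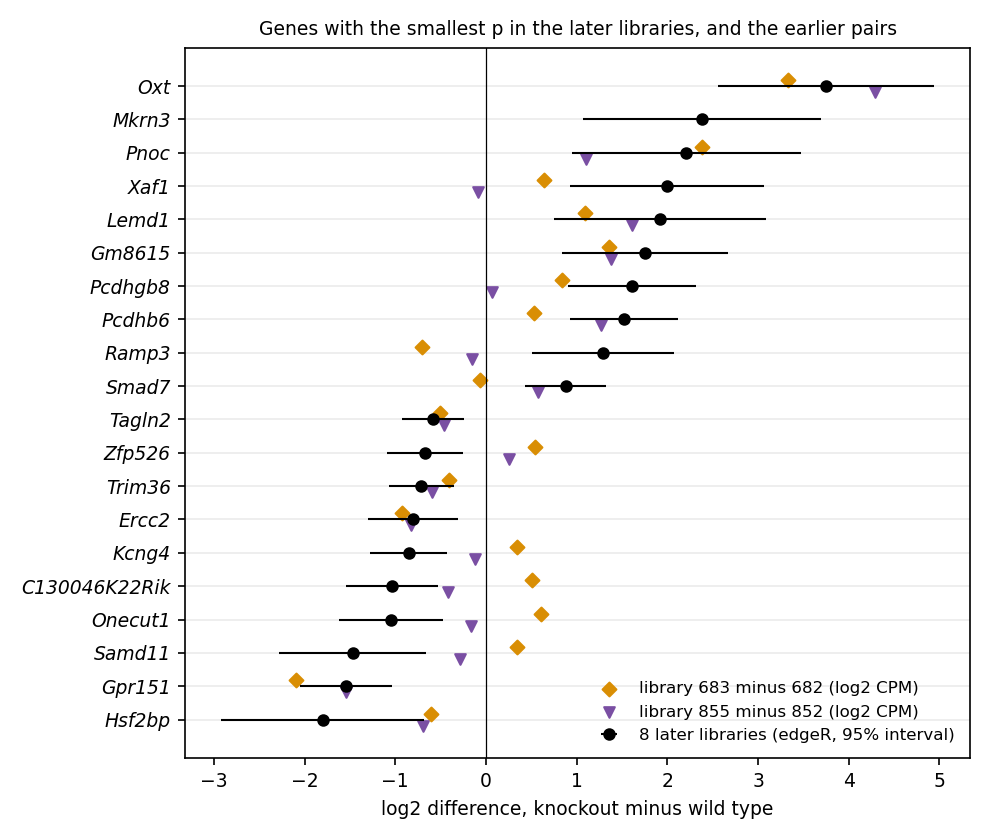
Log2 difference between knockout and wild type for the 20 genes with the smallest p, 10 a direction, in the 8 later libraries. Black points are edgeR log2 fold changes with 95% intervals; diamonds and triangles are the differences in log2 CPM of the 2 earlier pairs of libraries. Oxt, Gpr151, Trim36 and Tagln2 are among those on the same side of 0 in all 3. Ramp3 and Zfp526 lie on the other side in both earlier pairs. Kcng4, C130046K22Rik, Samd11, Onecut1, Smad7 and Xaf1 do so in 1 earlier pair, and Mkrn3 has no earlier value.

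All 16 astrocyte markers had higher means in knockout, with a median log2 fold change of 1.02, where the median over all genes was -0.00115. None was called with genotype alone, and 15 of 16 rose with the replicate block, against 4.36% of all genes. Slc1a2, the glutamate transporter of astrocytes, stood at 666, 84.1, 148 and 185 CPM in wild type and 1158, 163, 272 and 616 CPM in knockout, or 1.03 ± 0.72 with genotype alone and 1.09 ± 0.15 with the block (SE; edgeR blocked adjusted p = 0.00574). Aldoc, a glycolytic enzyme of astrocytes, had 0.99 ± 0.14 (blocked adjusted p = 0.00696, edgeR) and the filament Gfap 0.77 ± 0.13 (blocked adjusted p = 0.0114, edgeR). The median SE of the glial markers was 0.64 with genotype alone and 0.19 with the block.

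Of 16 oligodendrocyte markers, 13 rose with the block (median with genotype alone 0.99), among them Mobp (0.87 ± 0.14). Over all genes 4.36% rose with the block. Of 10 precursor markers 6 rose (median 1.00), including Olig1 (1.03 ± 0.11), a transcription factor of the lineage. None of the 12 tested microglial markers was called by edgeR with the block (median 0.76). DESeq2 with the block called 4, against 8.82% of all genes tested by edgeR. The receptor Csf1r had 0.94 ± 0.29 (blocked adjusted p = 0.0961 in edgeR and 0.0205 in DESeq2). No glial marker fell in edgeR. Without libraries 1091, 1099 and 1102 the medians were 0.56, 0.47, 0.53 and 0.06 for astrocytes, oligodendrocytes, precursors and microglia (11 microglial markers then passed the filter). With the glial score as a covariate, a setting that removes this level by construction, they were 0.03, -0.07, -0.02 and -0.11. In the earlier pairs the median of the glial markers was -0.33 between libraries 683 and 682 and 0.63 between 855 and 852, so knockout was not the higher genotype in both.

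The fit with the replicate block called 726 genes in all (4.93%), 642 higher (4.36%) and 84 lower (0.57%) in knockout, and placed 3117 (21.1%) at an unadjusted p under 0.05. DESeq2 with the same block called 1311 of 15332 (8.55%), 1078 of them higher (7.03%), and shared 720 of the 726. Where no tool is named, calls with the block are those of edgeR. No label says what the numbers in the file names mark. They were used as pairs because the deviations of same-numbered libraries from their group means correlated at 0.80, 0.64, 0.39 and 0.18 across genes, which are not independent replicates. Library 1094, however, correlated better with 1101 (0.28) than with 1102, and library 1102 better with 1091 (0.29). The block was thus chosen from the same libraries that it is used to test, and calls with it are not independent of that choice. Once genotype and the glial score were removed, the same-number correlations were 0.08, 0.15, 0.26 and 0.27, while libraries of different number reached 0.68 (1091 and 1100) and 0.58 (1092 and 1099). With the block, the 10 genes with the smallest p among the 642 included Gad2, which makes GABA, the glial genes Sparc, Olig1, Plekhb1 and Etnppl, the kinase Sgk1, the transcription factor Mef2c and the cytokine Il33. Sgk1 stood at 21.7, 10.5, 8.15 and 17.7 CPM in wild type and 75.7, 18.6, 28.2 and 57.6 CPM in knockout (1.54 ± 0.16, SE; edgeR blocked adjusted p = 0.00344), and Mef2c at 90.1, 10.5, 19.03 and 31.8 CPM in wild type and 163, 20.9, 39.6 and 92.5 CPM in knockout (1.11 ± 0.12; blocked adjusted p = 0.00344, edgeR). The groups overlap in both genes, and library 1091 exceeds knockout libraries 1100 and 1101 in Mef2c.

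Genes higher in knockout with the block were mostly those that follow the glial score. At equal genotype, 4576 of 14687 genes outside the score (31.2%) were called for a slope on it, 2643 rising (18%) and 1933 falling (13.2%). The count was 2217 without library 1099, 2664 without library 1091, and 0 in edgeR once the replicate block was added (2111 at an unadjusted p under 0.05), the term used to call the 642 genes. Of the 642 genes called higher, 594 (92.5%) also rose with the score, compared with 18.2% of all genes tested, and 34 of the 642 were glial markers. The slope and the genotype difference come from the same 8 libraries, so this count describes those libraries and is no independent test. The median log2 fold change of the 642 was 0.90 with genotype alone and 0.07 with the score as a covariate. Mef2c went from 1.06 to -0.14, Sparc from 1.19 to 0.14 and Olig1 from 1.00 to 0.09, whereas Sgk1 went from 1.63 to 0.80 and Oxt from 3.75 to 3.62.

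The 84 genes lower with the block had a median of -0.50 with genotype alone and -0.37 with the score as a covariate, and 20 of them (23.8%) fell with the score, compared with 13.1% of all genes. Apart from Gpr151, Kcng4, Trim36, Samd11, Zfp526 and C130046K22Rik, they included the tubulin Tubb6 at 3.80, 3.34, 7.32 and 6.67 CPM in wild type and 1.87, 1.20, 3.77 and 3.43 CPM in knockout (-1.09 ± 0.18, SE; edgeR blocked adjusted p = 0.0102) and the calcineurin B homologue Chp2 at 9.53, 9.84, 7.32 and 7.02 CPM in wild type and 3.32, 6.45, 4.91 and 2.50 CPM in knockout (-1.04 ± 0.20; blocked adjusted p = 0.0184, edgeR). The groups did not overlap in 36 of the 84, compared with 1.06% of all genes lower in this way. Of the 642 genes called higher, 19 did not overlap, compared with 0.529% of all genes higher in this way. Both sets were called for a small p in the same 8 libraries, so neither count is independent of that choice. With the block and the glial score together edgeR called 0 genes, with 891 at an unadjusted p under 0.05. The number of blocked calls depended on single pairs of libraries, from 209 without the pair 1091 and 1099 to 1802 without the pair 1092 and 1100.

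**Figure D4:**
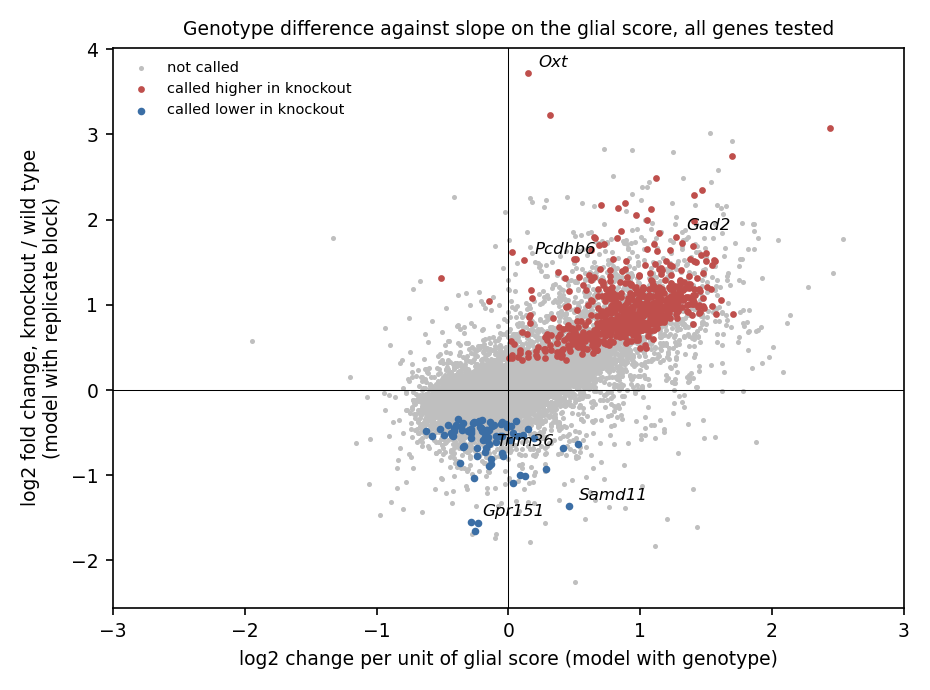
Each point is 1 of the 14741 tested genes: its log2 change per unit of glial score in a model with genotype (horizontal) against its log2 fold change between knockout and wild type in the model with the replicate block (vertical). Red and blue points are the 642 genes called higher and the 84 called lower with the block. Most red points lie to the right of 0, while Oxt and Pcdhb6 lie near 0 on the horizontal axis, and the blue points lie on both sides.

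Markers of other neurons also differed. All 7 tested of 10 GABAergic neuron markers had higher means in knockout (median 1.29). With the block 4 rose, against 4.36% of all genes, among them Gad2, Gad1 and Slc32a1. Gad2 stood at 130.0, 11.8, 31.7 and 56.5 CPM in wild type and 285, 53.9, 129 and 208 CPM in knockout, or 1.55 ± 0.69 with genotype alone and 1.80 ± 0.15 with the block (SE; edgeR blocked adjusted p = 0.00144). Gad1, which also makes GABA, stood at 13.6, 3.64, 8.51 and 6.78 CPM in wild type and 23.2, 6.70, 20.7 and 30.5 CPM in knockout (1.28 ± 0.20; blocked adjusted p = 0.00886, edgeR), and Slc32a1, which loads GABA into vesicles, at 1.83, 0.763, 0.960 and 1.61 CPM in wild type and 4.06, 1.11, 3.08 and 5.05 CPM in knockout (1.27 ± 0.26; blocked adjusted p = 0.0231, edgeR). The groups overlap in Gad2 and Gad1, where wild-type library 1091 lies above knockout library 1100. Without libraries 1091, 1099 and 1102 the log2 fold change of Gad2 was 1.46 and the list's median 0.91. The median of the 7 was 0.65 with the glial score as a covariate, with 7 of 7 above 0, and was also positive in both earlier pairs (0.51 and 2.19). In percent of input these markers were at 24.5%, 6.76%, 9.53% and 14.3% in wild type and 45.8%, 12.0%, 26.8% and 40.4% in knockout.

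Of 11 markers of the lateral habenula and thalamus, which adjoin the medial habenula, 8 rose with the block (median with genotype alone 0.70, with the score as a covariate 0.02). Gap43, a growth-associated protein of axons, stood at 53.7, 26.002, 29.2 and 38.9 CPM in wild type and 121, 40.2, 51.4 and 73.5 CPM in knockout (0.88 ± 0.10, SE; edgeR blocked adjusted p = 0.00377) and the kinase Prkcd, abundant in thalamic neurons, at 177, 26.6, 66.7 and 82.1 CPM in wild type and 242, 50.3, 141 and 312 CPM in knockout (1.09 ± 0.19; blocked adjusted p = 0.0116, edgeR). Among 14 vascular markers edgeR with the block called 1, the pericyte receptor Pdgfrb (1.40 ± 0.27; blocked adjusted p = 0.0189, edgeR), and DESeq2 with the block 2. Among 8 ependymal markers the counts were 0 and 1. Of 6 choroid plexus markers 1 rose and 1 fell. Over all genes with the block, edgeR called 4.36% higher and 0.57% lower, and DESeq2 called 8.82% of those edgeR tested. Ttr, the transthyretin of choroid plexus epithelium, stood at 0.811, 0.286, 0.508 and 0.486 CPM in wild type and 7.74, 0.617, 0.674 and 17.7 CPM in knockout, high in libraries 1099 and 1102 and near the wild-type range in 1100 and 1101 (edgeR blocked adjusted p = 0.0386). Otx2, a homeobox factor, stood at 81.04, 81.4, 81.3 and 75.9 CPM in wild type and 51.5, 73.7, 60.9 and 47.7 CPM in knockout (-0.47 ± 0.11; blocked adjusted p = 0.0322, edgeR). The median of the 3 choroid plexus markers with enough input counts, Otx2 among them, was 197% to 348% of the input level, unlike the glial markers. Without libraries 1091, 1099 and 1102 the median of the vascular markers turned from 0.51 to -0.31 and that of the choroid plexus markers from 1.22 to 0.02. The filter on counts was applied again, so these medians cover 15 vascular and 5 choroid plexus markers, not the same sets as before. In bulk RNA, fewer cells of a type and less RNA per cell cannot be told apart.

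**Figure D5:**
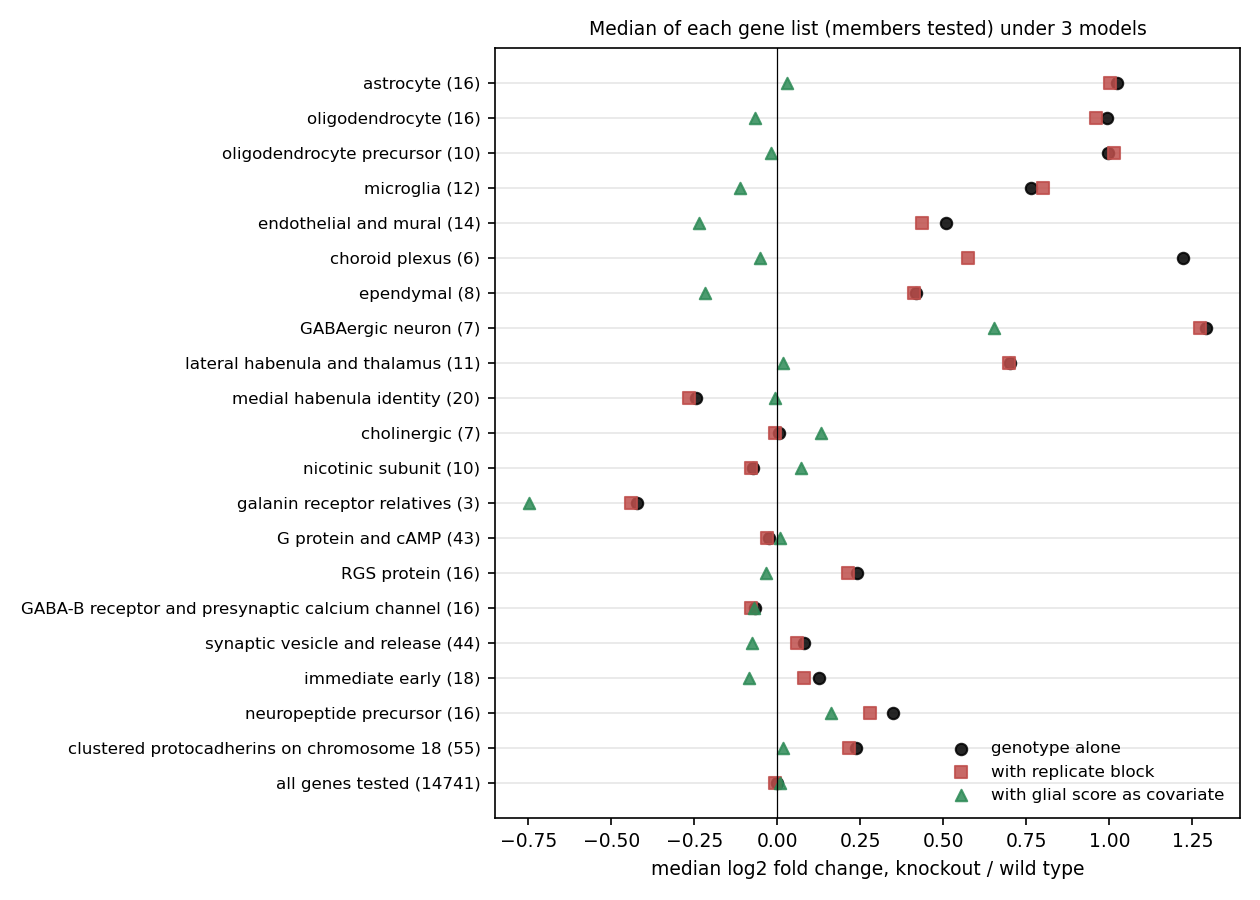
Median log2 fold change, knockout over wild type, of each gene list (number of members tested in brackets) under 3 models fitted to the same 8 libraries. Circles are genotype alone, squares add the replicate block, triangles add the glial score as a covariate. The 4 glial lists move from between 0.76 and 1.02 to between -0.11 and 0.03 with the covariate. GABAergic neuron markers move from 1.29 to 0.65.

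Transcripts of the purified neurons, the markers that define the labelled tissue, were mostly present at high levels in all 8 libraries. An exception among the medial habenula identity genes was Wif1, with 149 to 525 counts per library. All 20 medial habenula identity genes had lower means in knockout, with a median log2 fold change of -0.25 and a range of -0.57 to -0.06. The wild-type mean log2 CPM was 8.99 ± 0.171 and the knockout mean 8.71 ± 0.362 (SD, n = 4 each), lower in knockout in 4 of 4 numbers, with the lowest values in libraries 1099 and 1102. With genotype alone 0 of 20 were called. With the block edgeR called Gng8 and Necab2 lower, against 0.57% of all genes. DESeq2 with the block called 5, against 8.82% of all genes tested by edgeR. Pou4f1, the homeobox factor of habenular neurons, stood at 311, 340.2, 325 and 316 CPM in wild type and 179, 292, 278 and 222 CPM in knockout (-0.41 ± 0.17, SE; blocked adjusted p = 0.0512 in edgeR and 0.00551 in DESeq2). Nwd2, of high level in these neurons, stood at 2767, 2727, 2652 and 2487 CPM in wild type and 2047, 2189, 2511 and 2048 CPM in knockout (-0.27 ± 0.14). With the glial score as a covariate the median of the list was -0.01, with 10 of 20 members above 0, and without libraries 1091, 1099 and 1102 it was -0.03. For 15 of the 20 the 95% interval with genotype alone lay within 1 log2 unit on either side of 0, compared with 10102 of 14741 genes.

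No gene of acetylcholine handling was called with genotype alone, and the intervals of the main ones include 0. Chat, which makes acetylcholine, stood at 89.2, 149.9, 109 and 112 CPM in wild type and 67.98, 87.8, 121 and 82.1 CPM in knockout (-0.36 ± 0.22, SE; 95% interval -0.84 to 0.12). Slc18a3, which loads it into vesicles and lies within the Chat gene, so that some reads could belong to either gene, stood at 248, 601, 489 and 504 CPM in wild type and 204, 556, 385 and 260.3 CPM in knockout (-0.39 ± 0.35; -1.17 to 0.38). Slc5a7, which takes up choline, stood at 244, 404, 198 and 209 CPM in wild type and 213, 422, 231 and 192 CPM in knockout (0.01 ± 0.31; -0.68 to 0.69). In Slc5a7 libraries 1092 and 1100, the poorest in glial transcripts, were the highest of their genotypes. Of the 7 tested of 8 cholinergic genes, edgeR with the block called 1, Prima1, the membrane anchor of acetylcholinesterase, which fell (-0.41 ± 0.10; blocked adjusted p = 0.039, edgeR). DESeq2 with the block called 2, the other being Slc18a3 (adjusted p = 0.0243, against 0.0941 in edgeR). Over all genes edgeR with the block called 0.57% lower, and DESeq2 called 8.82% of those edgeR tested.

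None of the 10 tested of 13 nicotinic receptor subunits was called by edgeR or DESeq2 with the block or by edgeR without it, and their median was -0.07. Chrna3 stood at 1005, 1428, 1023 and 1085 CPM in wild type and 787, 1596, 1071 and 886 CPM in knockout (-0.07 ± 0.24, SE; 95% interval -0.59 to 0.46). Chrnb4 had -0.17 ± 0.27 (-0.76 to 0.43) and Chrna5, at 2.58 to 5.89 CPM, -0.29 ± 0.31 (-0.99 to 0.41). The interval lay within 1 log2 unit of 0 for 9 of the 10. With the block it lay within 0.5 log2 units of 0 for 6 of the 10. Chrna3 and Chrnb4 turned to 0.19 and 0.15 with the glial score as a covariate.

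Of 6 genes of galanin receptors, a related receptor and their peptides (Galr1, Galr2, Galr3, Kiss1r, Gal and Galp), 3 were tested and none was called. The tested ones were the receptors Galr1, Galr2 and Kiss1r. The lists of signalling and presynaptic genes had medians between -0.07 and 0.24, and edgeR with genotype alone called none of their members. DESeq2 with the block called 7 of the 43 G protein and cAMP genes, 5 of the 16 GABA-B and calcium channel genes and 8 of the 44 vesicle genes, against 8.82% of all genes tested by edgeR. Of 43 G protein and cAMP pathway genes (median -0.02), 5 rose with the block (Adcy6, Gnai1, Gng4, Adcy5 and Adcy1) and Gng8 fell, against 4.36% higher and 0.57% lower among all genes. Adcy6, an adenylyl cyclase, stood at 7.56, 2.46, 4.86 and 5.43 CPM in wild type and 11.6, 5.88, 7.97 and 14.8 CPM in knockout (1.00 ± 0.17, SE; edgeR blocked adjusted p = 0.0114). Gnao1, the abundant alpha subunit of neurons, stood at 2549.8, 2677, 2533 and 2481 CPM in wild type and 2091, 2190.4, 2461 and 2159 CPM in knockout and was not called by either tool (-0.20 ± 0.09; blocked adjusted p = 0.248, edgeR). Of 16 RGS proteins, which shorten G protein signals (median 0.24), Rgs16 and Rgs3 rose in edgeR with the block, against 4.36% of all genes. DESeq2 with the block called 6, against 8.82%. Rgs16 stood at 39.4, 16.6, 16.5 and 30.1 CPM in wild type and 80.9, 26.7, 28.8 and 59.9 CPM in knockout (0.88 ± 0.10; blocked adjusted p = 0.00344, edgeR), and its log2 fold change was 0.22 with the glial score as a covariate. Rgs4 stood at 162, 156, 168 and 170.2 CPM in wild type and 221, 173, 198 and 256 CPM in knockout with 0.37 ± 0.15 (blocked adjusted p = 0.0681 in edgeR and 0.016 in DESeq2).

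Of 16 genes for GABA-B receptors and the calcium channels of terminals (median -0.07), 4 channel subunits rose with the block, against 4.36% of all genes: Cacna2d1, Cacna2d3, Cacna1b and Cacna1a. Cacna1b, the N-type pore, stood at 64.3, 13.1, 19.4 and 25.9 CPM in wild type and 91.7, 23.6, 45.1 and 93.6 CPM in knockout (1.10 ± 0.18, SE; edgeR blocked adjusted p = 0.0094), rising by 1.03 per unit of glial score, and was at 0.22 with the score as a covariate. The P/Q-type pore Cacna1a went from 0.96 to 0.01 in the same way. Gabbr1, the ligand-binding subunit of the GABA-B receptor, was among the most abundant transcripts at 3506, 6529.9, 4578 and 4693 CPM in wild type and 2979, 6865, 4189 and 3309 CPM in knockout (-0.15 ± 0.29; 95% interval -0.80 to 0.49). Of 44 tested of 45 vesicle and release genes (median 0.08), Rph3a, Doc2b, Syn2 and Rab3c rose and Cplx2, a complexin that clamps fusion, fell, against 4.36% and 0.57% of all genes. Cplx2 stood at 343, 367, 389 and 363 CPM in wild type and 210.2, 313, 289.9 and 234 CPM in knockout (-0.50 ± 0.10; blocked adjusted p = 0.0228, edgeR), with no overlap between the groups. The vesicle SNARE Vamp2 stood at 1951, 2397, 2175 and 2211 CPM in wild type and 1417, 2047, 2011 and 1490.0 CPM in knockout with -0.34 ± 0.11 (blocked adjusted p = 0.0947 in edgeR and 0.0254 in DESeq2).

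Of 18 tested of 19 immediate early genes, which report recent activity (median 0.13), Dusp1 and Egr3 rose in edgeR with the block and Jund fell, against 4.36% and 0.57% of all genes. DESeq2 with the block called 8, against 8.82% of all genes tested by edgeR. Fosb stood at 3.13, 2.71, 1.43 and 4.31 CPM in wild type and 8.93, 3.16, 2.97 and 6.37 CPM in knockout (0.89 ± 0.43, SE; blocked adjusted p = 0.0617 in edgeR and 0.0137 in DESeq2). Nr4a3 stood at 76.2, 57.7, 96.5 and 95.9 CPM in wild type and 64.6, 52.96, 72.1 and 53.2 CPM in knockout (-0.43 ± 0.20; blocked adjusted p = 0.0794 in edgeR and 0.0317 in DESeq2). Of 16 tested of 26 neuropeptide precursors (median 0.35), edgeR with the block called Oxt and Pnoc higher, against 4.36% of all genes. DESeq2 with the block called 3, against 8.82%. Tac2, the neurokinin B precursor of these neurons, stood at 462, 781, 594 and 699.5 CPM in wild type and 353, 941, 476 and 334 CPM in knockout (-0.27 ± 0.33; 95% interval -1.01 to 0.47), highest in libraries 1092 and 1100.

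Clustered protocadherins and other genes near Gpr151 on chromosome 18 were examined as a separate group. Of 55 tested of 58 clustered protocadherins of chromosome 18, 47 had higher means in knockout (median 0.24). With the block 5 rose in edgeR, against 4.36% of all genes: Pcdhb6, Pcdhgb8, Pcdhb3, Pcdhb2 and Pcdhgc3. DESeq2 with the block called 7, against 8.82% of all genes tested by edgeR. With the glial score as a covariate the median was 0.02, with 29 of 55 above 0. Within 10 Mb of Gpr151, 11 of 153 tested genes (7.19%) rose and 2 (1.31%) fell with the block. Farther along chromosome 18 the shares were 17 of 248 (6.85%) and 4 (1.61%), and on other chromosomes 607 of 13860 (4.38%) and 76 (0.548%). Genes higher in knockout without overlap between the groups made up 3.92% (6 of 153) within 10 Mb, 1.61% farther along and 0.491% on other chromosomes. Those lower without overlap made up 1.96%, 2.42% and 0.996%. Among the 55 clustered protocadherins, 5 were higher without overlap. Pcdhb6 and Pcdhgb8 lie within 10 Mb of Gpr151, so the shares of this zone and the protocadherin counts have genes in common. Smad7, Trim36, Aldh7a1 and Tubb6 also lie on chromosome 18. What sets these shares was not tested.

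The 8 later tables list 597 symbols that the earlier tables do not, of which 161 were tested, none of them called with genotype alone and 1 at an unadjusted p under 0.05. With the block 4 rose, against 4.36% of all genes, including Epb41l2, a cytoskeletal linker, at 25.7, 4.92, 10.2 and 10.4 CPM in wild type and 50.05, 8.04, 19.9 and 40.004 CPM in knockout (1.15 ± 0.18, SE; edgeR blocked adjusted p = 0.00765) and Ccdc190 at 4.01, 1.49, 2.18 and 3.05 CPM in wild type and 7.34, 3.63, 3.12 and 4.59 CPM in knockout (blocked adjusted p = 0.0417, edgeR). Epb42, a protein of the red cell membrane skeleton, fell (-0.93 ± 0.22; blocked adjusted p = 0.0367, edgeR). Fam234b (0.29 ± 0.13) and Zfp512b (-0.27 ± 0.12) did not overlap between the groups but were not called by either tool with the block. They were the only 2 of the 161 without overlap, against 234 of 14741 genes. Fam234b stood at 63.8, 72.8, 75.4 and 73.5 CPM in wild type and 80.2, 97.4, 80.6 and 91.95 CPM in knockout, and Zfp512b at 38.6, 41.3, 38.4 and 41.04 CPM in wild type and 32.9, 31.6, 33.5 and 34.3 CPM in knockout. Vsir (1.21 ± 0.55) and Sgf29 (-0.31 ± 0.17) completed the 3 of smallest p in each direction.

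With the glial score as a covariate no gene of 14741 (0%) passed in edgeR, and 517 (3.51%) had an unadjusted p under 0.05. The 5 genes of smallest p in each direction were Oxt, Pcdhb6, Pcdhgb8, Mkrn3 and Cacfd1 among the higher and Gpr151, C130046K22Rik, Trim36, Samd11 and Aldh7a1 among the lower. Cacfd1 stood at 28.8, 74.3, 54.3 and 51.7 CPM in wild type and 36.9, 99.4, 54.2 and 41.8 CPM in knockout, 0.15 with genotype alone and 0.69 with the covariate. Aldh7a1, a dehydrogenase of lysine breakdown, stood at 24.9, 21.8, 22.004 and 20.5 CPM in wild type and 19.2, 11.8, 15.2 and 15.03 CPM in knockout and went from -0.54 to -0.73. Whether the genotype difference of the later libraries differs from that of the earlier ones was tested as an interaction. No gene of 14317 (0%) passed in edgeR, where 325 (2.27%) had an unadjusted p under 0.05. DESeq2 gave 2 calls, Ermap and 3110001I22Rik, which no other rule named.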

How the data were processed

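Raw read counts per gene symbol, 1 table per library, are as deposited by the authors. They used STAR 2.3.0e, HTSeq, DESeq2 and mm10, per the submitters' processing notes. No source used here gives the settings, strand or annotation. The Ovation V2 kit amplified the RNA ahead of TruSeq library preparation, per the labels' protocols. Lines without a gene were left out (9.92% to 16.6% of alignments outside genes). Overlapping or antisense genes are therefore not fully separable.

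Counts of the 8 libraries were fitted in edgeR 4.0.16 (R 4.3.3; filterByExpr at 10 counts and a total of 15, TMM, robust quasi-likelihood test, two-sided) with Benjamini-Hochberg adjustment over all genes and a threshold of 0.05. Alternatives were DESeq2 1.42.0, limma 3.58.1 (voom), a replicate block by the number in the file names, the glial score as a covariate, and others given at the end. Log2 CPM used a prior count of 2. The scripts were tested on simulated data. SEs were derived from the F statistic. Chi-square per degree of freedom between libraries of a group was 23.1 to 543, so none was a duplicate. The numbers in the file names were taken as pairing the libraries because each of the 4 correlations of deviations passed a limit of 0.1. Libraries of different number passed it too: 1091 and 1102 (0.29), 1094 and 1101 (0.28), 1093 and 1100 (0.12), 1092 and 1101 (0.12). The limit therefore does not single out same-numbered libraries. The block was chosen from the libraries it is used to test, so results with it are not independent of that choice. Gene positions are from GENCODE M21 (GRCm38).

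The comparison, gene lists and markers were chosen with earlier results of these data known. Genes were named by rule: Gpr151, the 10 of smallest p per direction, 3 per direction among symbols absent from the earlier tables, 5 per direction with the covariate, up to 4 per list (small p or high level), and all genes called where a tool called 5 or fewer. Not all genes the rule allows are printed. Avp, Hcrt and Pmch were named outside it. Genes named for the replicate block were chosen after its values were seen.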

Additional observations from a re-analysis of the deposited data

Results flagged for a closer look

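A sample was picked out where it lay so far from the other 3 libraries of its genotype that the gap exceeded the 95% critical value of Dixon's test. Of 184 groups of values checked, 15 were picked out, and chance picks about 1 in 20 groups. Library 1092 was the highest of wild type for Gpr151 (558 CPM, others 347 to 370) and Pcdhgb8 (2.33 CPM, others 1.17 to 1.36) and the lowest for C130046K22Rik (7.19 CPM, others 11.8 to 12.4). Library 1099 was the highest of knockout for Pcdhgb8 (6.62 CPM), Epb42 (3.13 CPM), P2ry12 (3.99 CPM) and the share of alignments outside genes (16.6%). Library 1091 was the highest of wild type for Il33 (22.2 CPM), Aqp4 (39.2 CPM), P2ry12 (2.82 CPM) and the share outside genes (13.2%), and the lowest for the share of reads that were not unique (25.2%). Library 1101 was the highest of knockout for Ercc2 (4.45 CPM), library 1100 for Slc5a7 (422 CPM), and library 1094 the lowest of wild type for Otx2 (75.9 CPM). Of these 15, 9 concern libraries 1091 and 1099, which were the richest in glial transcripts of their genotypes. Whether the glial level accounts for them was not tested.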

How the results depend on the processing

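Across genes, the spread between the 4 libraries of a genotype exceeded counting error (chi-square per degree of freedom 23.1 to 543). In genes of few counts, such as Oxt, Mkrn3 and Hsf2bp, counting error also limits precision. The count of 0 genes with genotype alone held with RLE or upper-quartile factors, both filters, shared symbols, the glial score, and without any single library (0 to 0 genes), and without libraries 1091, 1099 and 1102 together. It was 4 with DESeq2, 1 with voom and 2 with all 12 IP libraries. With the replicate block it was 726, with the block 1311 in DESeq2 and 1567 in voom, and, leaving out the pairs numbered 1 to 4 in turn, 209, 1802, 258 and 361. The settings that combine the block with another choice were added after the data were seen. The log2 fold change of Gpr151 passed with DESeq2 (-1.54), voom (-1.57), all 12 libraries (-1.63), the block (-1.55), the block in DESeq2 (-1.55) or voom (-1.52), and the block without each pair in turn (-1.50, -1.56, -1.61 and -1.50). Genes called for the slope on the glial score numbered 4576, from 2217 without library 1099 and 2664 without library 1091 to 4657 without library 1092, and 0 with the replicate block (2111 at an unadjusted p under 0.05). The interaction with earlier libraries gave 2 with DESeq2.

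The sign of a log2 fold change reversed in 34 of the settings tried for single genes. With the glial score it became -0.14 for Mef2c, -0.0083 for Plekhb1, -0.11 for Slc1a2, -0.12 for Mbp, -0.030 for Olig2, -0.15 for Csf1r, -0.33 for Aqp4, -0.54 for Gfap, 0.14 for Slc18a3, 0.19 for Chrna3, 0.15 for Chrnb4, 0.22 for Gabbr1 and 0.097 for Tac2. Without libraries 1091, 1099 and 1102 it became 0.18 for Chrna3, 0.070 for both Chrnb4 and Gabbr1, 0.036 for Tac2 and -0.000646 for Gfap. Slc5a7 became -0.0037 with voom, -0.0070 with the block and -0.026 with all 12 libraries, and Cacfd1 -0.12 with voom. Leaving out single libraries, values ran from -0.32 to 0.081 for Chrna3, -0.46 to 0.013 for Chrnb4, -0.48 to 0.025 for Gabbr1, -0.25 to 0.37 for Cacfd1 and -0.32 to 0.29 for Slc5a7. The cause of these changes was not tested.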
